A study of Schizosaccharomyces japonicus with 6 samples.

Results

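The septin family of the fission yeast *Schizosaccharomyces japonicus* is represented in these data by 7 genes, *spn1* to *spn7*, out of 5272 genes in the deposited table. They were chosen by gene symbol, and the table describes each of them as a septin. Their levels were not used in the choice, but earlier results of these data were known when it was made. All 7 had a mean of at least 1 FPKM (sequenced fragments, corrected for transcript length and for the mapped fragments of a library) and were among the 4899 genes tested. RNA-seq was performed on 2 biological replicates of each of 3 strains in vegetative growth, with the question of how gene expression changes when *pab2* is deleted or *clr4* is mutated. WT was strain NIG5572. In *pab2*Δ the gene for the nuclear poly(A)-binding protein Pab2 had been replaced. The *clr4-1* cells carry a temperature-sensitive allele from PCR-based random mutagenesis of *clr4*, which encodes the methyltransferase for lysine 9 of histone H3. All 3 strains were grown without any treatment in the rich medium YES at 30 °C, and each mutant is a single strain. The RNA came from whole cultures, in which fewer cells of a type and less RNA per cell cannot be told apart.

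Septins are GTP-binding proteins that assemble into rods and filaments at membranes. In the related fission yeast *Schizosaccharomyces pombe*, Spn1 to Spn4 form a ring at the division site that helps the daughter cells to separate. Spn5, Spn6 and Spn7 act with Spn2 during sporulation, at the forespore membrane that grows around each nucleus after meiosis, and their genes are expressed mainly in meiosis. The names mitotic septins (*spn1* to *spn4*) and sporulation septins (*spn5* to *spn7*) are used here in that sense, from *S. pombe*.

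The strain labels were checked first. The WT libraries held *pab2* at 145 and 142 FPKM, and the table lists it at 0 in the pair of *pab2*Δ libraries. The transcript of *clr4*, at 9.34 and 9.48 FPKM in WT, was more abundant in *clr4-1* (19.6 and 23.3 FPKM, log2 change 1.10, limma adjusted p = 0.00127). The level does not show the allele itself. The 2 libraries of a strain differed by a median of 0.051 to 0.056 on the log2 scale per gene. Summed FPKM was lower in *pab2*Δ (920550 and 910209) than in WT (1068000 and 1047610) or *clr4-1* (1080820 and 1063580). The median log2 change of all genes tested in *pab2*Δ was 0.19. Scaling by trimmed means (TMM) moved it to -0.0079, so the septin changes against WT are given under both scalings. With TMM, the genes called higher and lower were 1612 and 1692 in *pab2*Δ (2634 and 977 without) and 1030 and 865 in *clr4-1* (740 and 1345 without).

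In WT, the 4 mitotic septins were well above the 3 sporulation septins. *spn3* (SJAG_04375) was the highest of the family, at 67.5 and 65.2 FPKM. It was followed by *spn2* (SJAG_00663) at 42.1 and 41.0, *spn1* (SJAG_01277) at 39.8 and 37.9, and *spn4* (SJAG_03374) at 33.8 and 33.6 FPKM. *spn6* (SJAG_03688) was at 9.22 and 8.34, *spn5* (SJAG_01769) at 5.15 and 5.20, and *spn7* (SJAG_04470) at 1.25 and 0.670 FPKM. No neighbours in this order overlapped between the 2 WT libraries. The *spn3* level was higher than that of 76.7% and 75.8% of genes in the table, and the *spn7* level was higher than that of only 9.65% and 8.29%. FPKM is per length, which allows levels of different genes to be set side by side.

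**Figure D1:**
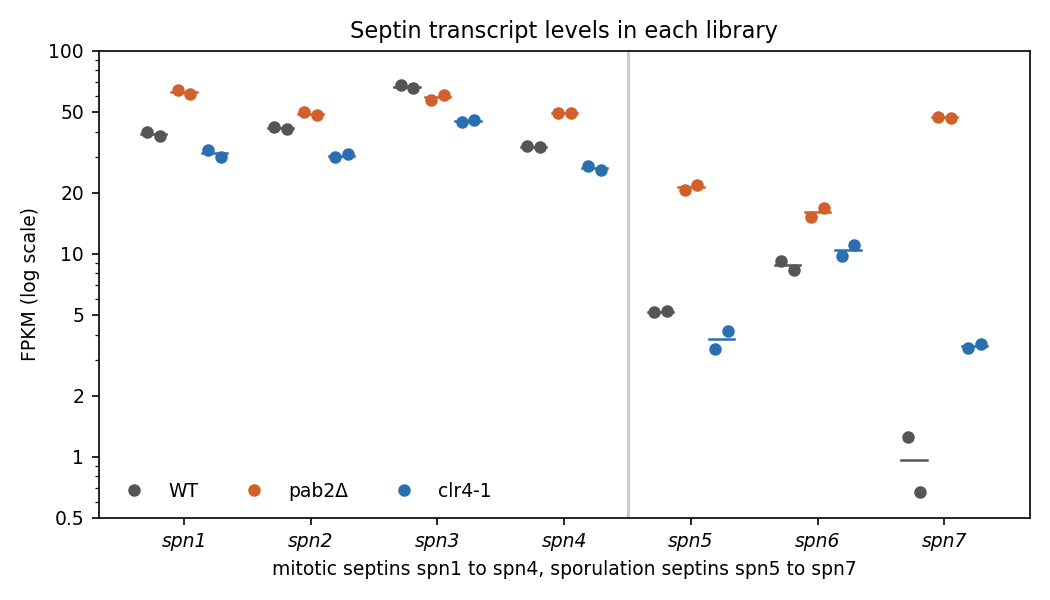
FPKM (log axis) of the 7 septin genes in the 6 libraries, with 1 dot per library and a dash at the mean of the 2 libraries of a strain. The *spn7* dots rise from 1.25 and 0.670 FPKM in WT to 47.2 and 46.7 in *pab2*Δ, whereas those of *spn3* stay between 44.7 and 67.5 in all strains.

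The sporulation septins rose in *pab2*Δ, and *spn7* rose most. *spn7* was at 47.2 and 46.7 FPKM in *pab2*Δ against 1.25 and 0.670 in WT, ratios of 37.4 to 70.5 over the 4 pairs of a mutant and a WT library. The spread of these ratios comes mostly from the low WT values, and the change on the scale of log2(FPKM + 1) was 4.63 ± 0.14 (SE, n = 2 libraries per strain, limma adjusted p = 3.79e-06). It had rank 2 among the 4899 changes ordered from the highest, and *spn7* then stood above 65.5% and 64.9% of genes. *spn5* was at 20.6 and 21.8 FPKM against 5.15 and 5.20 in WT. Its ratios of 3.97 to 4.23 hardly varied between library pairs, its log2 change was 1.85 ± 0.091 (SE, n = 2, limma adjusted p = 1.99e-05), and its rank was 138. *spn6* was at 15.1 and 16.9 FPKM against 9.22 and 8.34, with ratios of 1.64 to 2.02 and a log2 change of 0.80 ± 0.089 (SE, n = 2, limma adjusted p = 4.54e-04). For each of these 3 genes, both *pab2*Δ libraries were above both WT libraries. The 95% intervals of the log2 changes did not overlap between the 3 genes: 4.27 to 4.98 for *spn7*, 1.62 to 2.07 for *spn5* and 0.58 to 1.02 for *spn6*.

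The mitotic septins changed less in *pab2*Δ than *spn5* and *spn7*, and they did not all change in the same direction. *spn1* was at 64.0 and 61.3 FPKM in *pab2*Δ against 39.8 and 37.9 in WT, a log2 change of 0.67 (95% interval 0.55 to 0.80, limma adjusted p = 9.64e-05). *spn4* was at 49.1 and 49.4 FPKM against 33.8 and 33.6, a log2 change of 0.54 (0.44 to 0.63, limma adjusted p = 7.90e-05). The intervals of *spn1*, *spn4* and the sporulation septin *spn6* overlapped one another. *spn2* was at 49.9 and 48.1 FPKM against 42.1 and 41.0, a log2 change of 0.23 (limma adjusted p = 0.00272). *spn3* was lower in *pab2*Δ, at 57.5 and 60.2 against 67.5 and 65.2 FPKM, a log2 change of -0.17 (limma adjusted p = 0.00836). Neither of the latter changes was large. With TMM scaling, that of *spn2* was 0.02 (limma adjusted p = 0.635) and that of *spn3* was -0.38, and without WT replicate 1 *spn3* was not called (-0.15, limma adjusted p = 0.0510). With TMM scaling the other values were 0.46 for *spn1*, 0.33 for *spn4*, 0.60 for *spn6*, 1.65 for *spn5* and 4.44 for *spn7*, all called higher.

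At an adjusted p under 0.05, 6 of the 7 septins were thus called higher in *pab2*Δ and 1 was called lower. Of all genes tested, 53.8% were called higher and 19.9% lower, so the number of septins called higher says little by itself, and it is the sizes of the changes that set *spn7* and *spn5* apart from the other members. By the stricter fold rule, a ratio above 2 in all 4 pairs of libraries, 2 septins were higher (*spn5* and *spn7*), against 7.6% of the 4897 genes with a ratio. No septin was below 0.5 in all 4 pairs, against 2.02% of genes. The median log2 change of the 7 septins was 0.67, beside 0.19 for all genes tested.

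**Figure D2:**
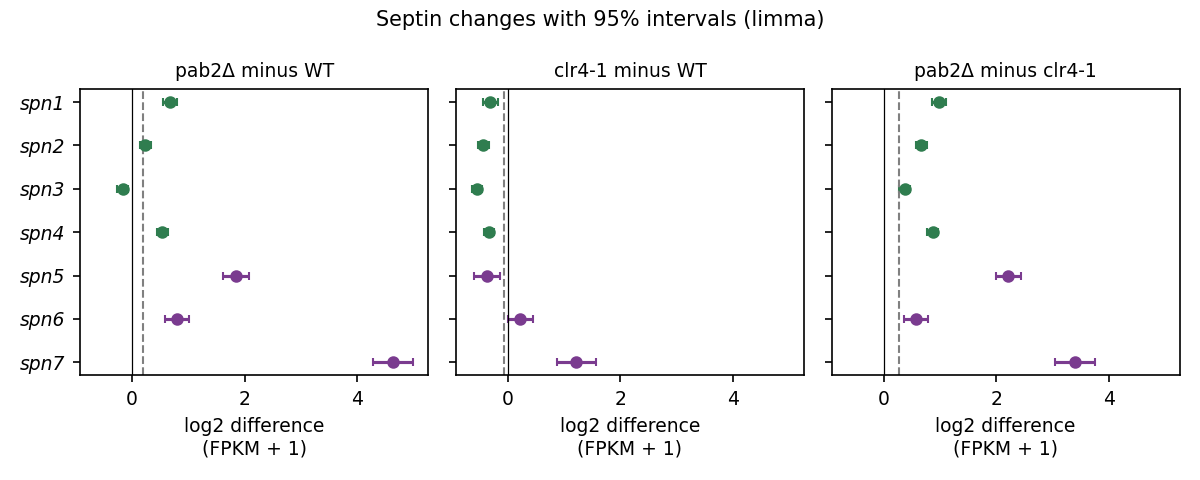
Fitted log2 changes of log2(FPKM + 1) of the 7 septin genes in the 3 comparisons, with 95% intervals as bars, mitotic septins in green and sporulation septins in purple. The dashed grey line is the median of all genes tested (0.19 for *pab2*Δ against WT and -0.064 for *clr4-1* against WT), and *spn7* lies far to the right of the rest in *pab2*Δ at 4.63.

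In *clr4-1*, all 4 mitotic septins fell by modest amounts. *spn3* was at 44.7 and 45.5 FPKM in *clr4-1* against 67.5 and 65.2 in WT, a log2 change of -0.55 (limma adjusted p = 3.78e-04). *spn2* was at 29.8 and 31.0 against 42.1 and 41.0 FPKM, a log2 change of -0.44 (limma adjusted p = 8.57e-04). *spn4* was at 27.2 and 25.8 against 33.8 and 33.6 FPKM (-0.34, limma adjusted p = 0.00195). *spn1* was at 32.4 and 30.1 against 39.8 and 37.9 FPKM (-0.31, limma adjusted p = 0.00656). Both *clr4-1* libraries were below both WT libraries for each of the 4 genes. The interval of *spn1*, -0.43 to -0.18, overlapped those of *spn2* and *spn4*. All 4 were called lower with TMM scaling too, at -0.48 for *spn3*, -0.37 for *spn2*, -0.27 for *spn4* and -0.24 for *spn1*.

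The 3 sporulation septins went different ways in *clr4-1*. *spn7* was at 3.43 and 3.60 FPKM against 1.25 and 0.670 in WT, a log2 change of 1.22 (95% interval 0.87 to 1.57, limma adjusted p = 0.00208), with ratios of 2.75 to 5.37. Both *clr4-1* libraries lay above both WT libraries, but the level was still below that of most genes, above only 12.2% and 12.2% of them. *spn5* was at 3.40 and 4.17 FPKM against 5.15 and 5.20, a log2 change of -0.37 (-0.60 to -0.15, limma adjusted p = 0.0231). That call was lost without WT replicate 1 (limma adjusted p = 0.0869), WT replicate 2 (0.0932), *clr4-1* replicate 1 (0.0561) or either *pab2*Δ library (0.0511 and 0.0509), and with only the 4 libraries compared (0.0540). *spn6* was at 9.75 and 11.0 against 9.22 and 8.34 FPKM, a log2 difference of 0.22 with an interval from -0.00078 to 0.44 (limma adjusted p = 0.0973), which did not pass the test. With TMM scaling the values were 1.29 for *spn7*, -0.32 for *spn5* (limma adjusted p = 0.0418) and 0.28 for *spn6* (limma adjusted p = 0.0552).

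In all, 5 of the 7 septins were called lower in *clr4-1*, where 27.5% of all genes tested were, and 1 was called higher (*spn7*), where 15.1% were. By the fold rule, 1 septin was higher (*spn7*, against 0.796% of genes) and none was lower (1.18% of genes). The median log2 change of the septins was -0.34, beside -0.064 for all genes tested. Both mutants were compared with the same 2 WT libraries, so their changes are not independent of each other.

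Because of the shared WT libraries, the mutants were also compared directly. Each of the 7 septins was called higher in *pab2*Δ, in a comparison in which 61.1% of all genes tested were called higher, 17.4% lower, and with TMM scaling 1688 genes higher and 1690 lower. The log2 differences were 3.41 for *spn7* and 2.22 for *spn5*, with limma adjusted p values of 9.53e-06 and 9.01e-06. Among the mitotic septins they were 0.98 for *spn1*, 0.87 for *spn4*, 0.67 for *spn2* and 0.38 for *spn3*, and for *spn6* the difference was 0.58 (limma adjusted p = 0.00158). The *spn7* level was 13.0 to 13.7 times as high in *pab2*Δ as in *clr4-1* over the 4 library pairs, a narrower range than against WT. With TMM scaling the *spn3* difference was 0.10 and was not called (limma adjusted p = 0.0578), while the other 6 were called.

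The order of the septin levels differed between the strains. In *pab2*Δ, *spn1* was the highest (64.0 and 61.3 FPKM), followed by *spn3* (57.5 and 60.2). Then came *spn4* and *spn2*, whose ranges overlapped, and *spn7* (47.2 and 46.7 FPKM) lay just below them and above *spn5* and *spn6*. In *clr4-1*, *spn3* was again first, *spn1* and *spn2* overlapped, and *spn5* (3.40 and 4.17 FPKM) and *spn7* (3.43 and 3.60) overlapped at the bottom. The mitotic septins were closer to one another in *pab2*Δ, where the highest was 1.30 and 1.27 times the lowest, than in WT (2.00 and 1.94 times) or *clr4-1* (1.65 and 1.77 times). The *spn1* to *spn3* ratio was 1.11 and 1.02 in *pab2*Δ, 0.590 and 0.582 in WT and 0.724 and 0.661 in *clr4-1*. The *spn7* to *spn2* ratio, between proteins that act together in sporulating *S. pombe* cells, was 0.0297 and 0.0163 in WT, 0.115 and 0.116 in *clr4-1* and 0.946 and 0.971 in *pab2*Δ. These ratios within a library do not depend on the scaling between libraries.

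Added up without TMM scaling, septin transcripts amounted to 199 and 192 FPKM in WT, 303 and 304 in the *pab2*Δ libraries and 151 and 151 in *clr4-1*. TMM scaling divides by 1.12 in both *pab2*Δ libraries, 0.97 in both WT libraries and 0.93 and 0.92 in *clr4-1*. It therefore makes these totals differ less between *pab2*Δ and the other strains, while shares within a library stay the same. The sporulation septins made up 7.85% and 7.40% of the septin sum in WT, 27.3% and 28.0% in the *pab2*Δ libraries and 11.0% and 12.4% in *clr4-1*. *spn7* alone held 0.628% and 0.349% in WT, 15.6% and 15.3% in the *pab2*Δ libraries and 2.28% and 2.38% in *clr4-1*. The share of *spn3* was 34.0% in both WT libraries, 18.9% and 19.8% in the *pab2*Δ libraries and 29.7% and 30.1% in *clr4-1*. With *spn7* set aside, *spn5* and *spn6* held 7.27% and 7.08% of the remaining sum in WT, 14.0% and 15.0% in the *pab2*Δ libraries and 8.93% and 10.3% in *clr4-1*, so the higher share in *pab2*Δ was not that of *spn7* alone.

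**Figure D3:**
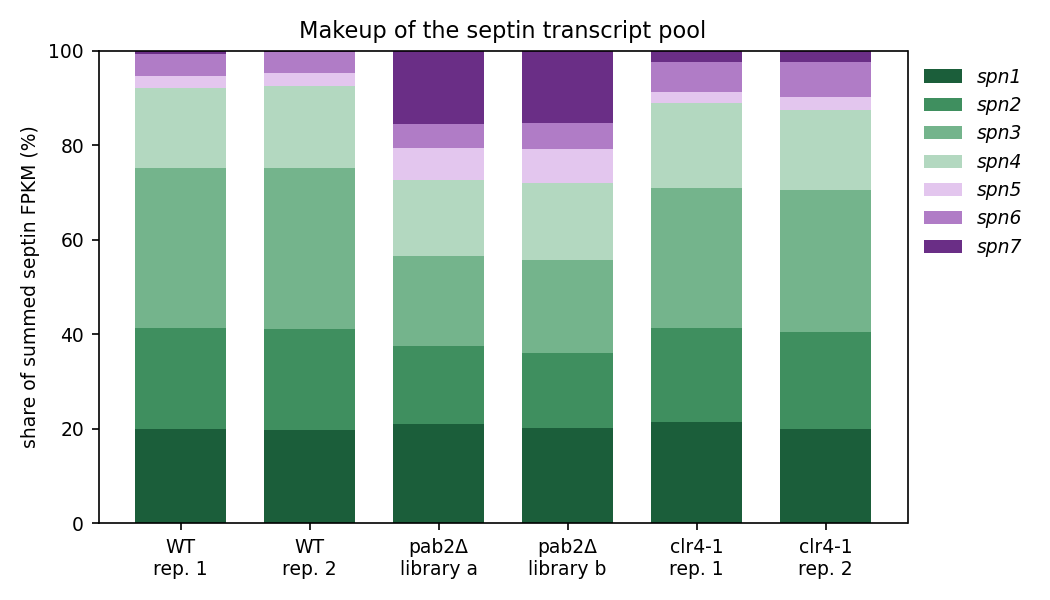
Share of the summed septin FPKM, in percent, held by each septin in each of the 6 libraries. The sporulation septins fill 7.85% and 7.40% in WT, 27.3% and 28.0% in the *pab2*Δ libraries and 11.0% and 12.4% in *clr4-1*, and most of the added share in *pab2*Δ is *spn7*.

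The contrast between the groups was also expressed as the mean log2(FPKM + 1) of the sporulation septins minus that of the mitotic septins. It was -3.12 and -3.26 in WT, -1.12 and -1.04 in the *pab2*Δ libraries and -2.51 and -2.34 in *clr4-1*, with no overlap between strains. The shift from WT was 2.11 in *pab2*Δ and 0.76 in *clr4-1*, and without *spn7* it was 1.00 and 0.33.

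The genes whose pattern over the 6 libraries was closest to a septin were found by the distance between log2(FPKM + 1) values centred on each gene's mean. The 5 closest to *spn7* were SJAG_02710 (distance 0.47), SJAG_01850 (0.58), SJAG_03821 (0.79), *meu10* (0.86), which in *S. pombe* encodes a protein needed for the spore wall, and *ddr48* (0.91). *meu10* resembled *spn7* in level too, with means of 38.6 FPKM in *pab2*Δ, 1.76 in *clr4-1* and 1.00 in WT. No other septin was near *spn7*, the closest being *spn5* at a distance of 2.81 and rank 124. The genes closest to *spn5* were SJAG_01649 (0.21), *meu25* (0.23), known in *S. pombe* as a gene upregulated in meiosis, and SJAG_00138 (0.27). Closest to *spn6* were *gcd1* (0.12), *mxr2* (0.14) and SJAG_04648 (0.15).

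The nearest genes of the mitotic septins were looked up after their values had been seen. They were *pcl1* for *spn1* (distance 0.093), *gyp7* for *spn2* (0.048), SJAG_04326 for *spn3* (0.057) and *agn1* for *spn4* (0.018). Only *agn1* of these is on the lists of division and sporulation genes used below. *agn1* encodes an α-glucanase that opens the septum edge when *S. pombe* cells separate, and it was at 38.4 and 37.9 FPKM in WT, 55.6 and 55.3 in the *pab2*Δ libraries and 30.6 and 29.0 in *clr4-1*. *spn1* and *spn4* were the septins most alike, at a distance of 0.16, and *spn4* had rank 22 among the genes nearest to *spn1*.

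**Figure D4:**
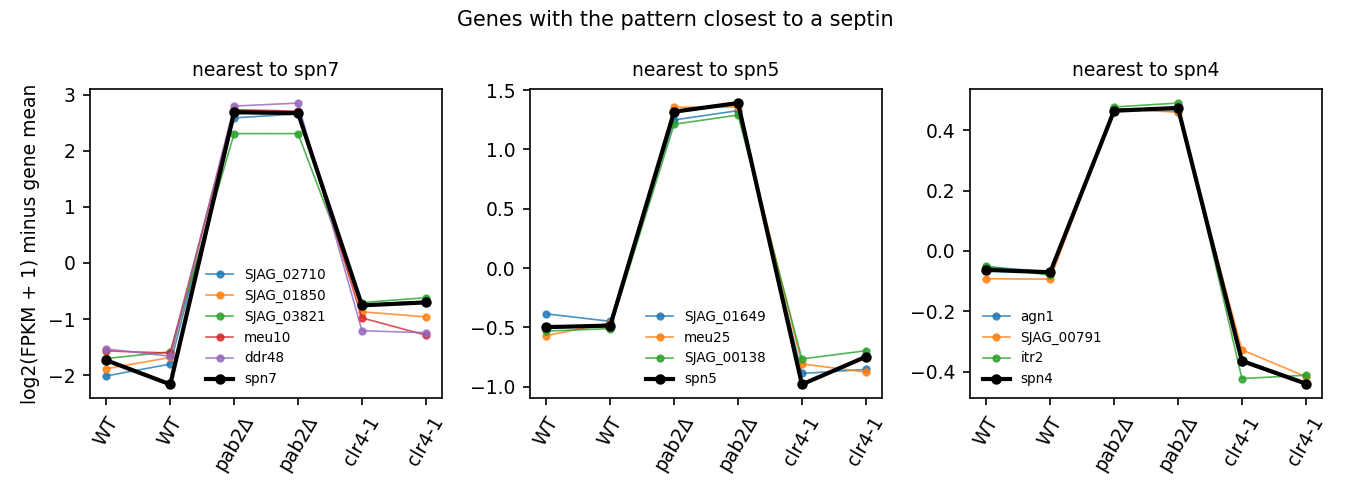
Log2(FPKM + 1) minus the gene's mean, in the 6 libraries, for *spn7*, *spn5* and *spn4* (black) and the genes of most similar pattern (coloured), each panel with its own vertical scale. All lines are highest in *pab2*Δ, and *agn1* lies almost on *spn4*, at a distance of 0.018.

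Genes that work with the septins were followed through lists drawn up from *S. pombe*. Of 15 genes for septin ring partners, including the exocyst, 7 were called higher and 2 lower in *pab2*Δ (median log2 change 0.20), and 1 was called higher and 10 lower in *clr4-1* (median -0.24). Of all genes tested, 53.8% were called higher and 19.9% lower in *pab2*Δ, and 15.1% and 27.5% in *clr4-1*, and these shares apply to each list that follows. *mid2* encodes the anillin-like protein that stabilises the septin ring. It was at 48.6 and 48.8 FPKM in WT, 58.3 and 59.4 in *pab2*Δ (log2 change 0.27, limma adjusted p = 6.16e-04) and 31.2 and 32.0 in *clr4-1* (-0.61, limma adjusted p = 1.18e-04). *gef3* encodes a guanine nucleotide exchange factor that binds the septins, and it was at 32.7 and 33.6 FPKM in WT, 62.6 and 64.6 in *pab2*Δ (0.92, limma adjusted p = 1.04e-05) and 36.6 and 35.2 in *clr4-1* (0.11, limma adjusted p = 0.0601). With TMM scaling the *mid2* change in *pab2*Δ was 0.06 and not called (limma adjusted p = 0.166), and *gef3* was called higher in *clr4-1* too (0.18, limma adjusted p = 0.0139). Of the exocyst genes, *sec6* (1.22) and *sec5* (0.57) rose most in *pab2*Δ, and others were called higher there by smaller amounts. In *clr4-1*, *sec6* was called higher (0.39), whereas *sec5* (-0.28) and other exocyst genes were called lower. *rho4* (-0.52), for a GTPase in cell separation, and *cdc14* (-0.43) fell in *clr4-1*. *cdc14* is also on the list of the septation initiation network below, so its fall is counted in both lists.

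The other division lists had medians between -0.14 and 0.20 in the mutants. Of 19 cell separation and septum genes tested, 13 were called higher and 2 lower in *pab2*Δ (median 0.20), led by *chs2* (0.88), *adg2* (0.83) and *cfh4* (0.72). In *clr4-1*, 2 were called higher and 8 lower (median -0.11), led by *adg1* (-0.63), the septum glucanase gene *eng1* (-0.60) and *art1* (-0.52). Of 23 contractile ring genes, 8 were called higher and 2 lower in *pab2*Δ (median 0.08), with *rng2*, for an IQGAP protein, at 1.23, the kinase gene *cdr2* at 0.75 and the myosin gene *myp2* at 0.53. In *clr4-1* 8 were called lower and 15 were not called, with *mid1* at -0.27, *imp2* at -0.26 and *cdc15* at -0.22. A further list held 13 genes of the septation initiation network, the kinase cascade that triggers septation, and of its regulators, which include inhibitors. Of these, 5 were called higher in *pab2*Δ (*dma1* 1.01, *sid1* 0.72, *sid2* 0.59) and 8 were not called. In *clr4-1* 6 were called lower (*cdc14* -0.43, *sid4* -0.37, *mob1* -0.35) and 7 were not called. These counts depend on the scaling: with TMM, 3 ring partners were called higher and 4 lower in *pab2*Δ, 7 and 6 for cell separation genes, 4 and 10 for contractile ring genes and 5 and 6 for the septation initiation network, where *cdc14* (-0.41), *sid4* (-0.23) and *mob1* (-0.33) were among those lower. In *clr4-1*, the calls of *mid1* (-0.21), *imp2* (-0.20) and *cdc15* (-0.16) were lost with TMM.

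Of 18 forespore membrane genes tested, where the sporulation septins act in *S. pombe*, 15 were called higher and 1 lower in *pab2*Δ (median 0.46), beside 53.8% and 19.9% of all genes tested. The list is not confined to genes of sporulating cells: *spo14* was at 88.8 and 90.7 FPKM in vegetative WT, and *sid2* is also counted in the septation initiation network. *spo5*, for a meiotic RNA-binding protein, rose by 2.73, *meu14*, for a protein at the leading edge of the membrane, by 2.62, and the kinase gene *mug27* by 2.15 on the log2 scale. In *clr4-1*, 4 were called higher and 3 lower (median 0.033), with *mde3* at 0.40, *spo14* at -0.35 and *meu14* at 0.30. Of 13 genes on the spore wall list, which includes *ssp1* and *wsc1*, genes that act in growing cells, 10 were called higher and 1 lower in *pab2*Δ (median 0.31). *meu10* rose by 4.31 and the glucan synthase gene *mok13* by 1.45, whereas the chitin deacetylase gene *cda1* was lower at -2.46. With TMM, 10 forespore membrane genes were called higher and 3 lower, and 6 and 2 spore wall genes. Of the spore wall genes in *clr4-1*, 3 were called higher and 3 lower, with *cda1* at -2.36, *chs1* at 0.61 and *bgs2* at -0.49.

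Markers of cells that enter mating and meiosis were examined beside the sporulation septins, as the cultures were labelled vegetative. Of the 13 tested, 9 were called higher and 2 lower in *pab2*Δ (median 0.46), and 1 was called higher and 5 lower in *clr4-1* (median -0.25). For comparison, calls over all genes tested made up 53.8% (higher) and 19.9% (lower) in *pab2*Δ, and 15.1% and 27.5% in *clr4-1*. The summed level of the 13 markers was 196 and 193 FPKM in WT, 188 and 196 in the *pab2*Δ libraries and 109 and 108 in *clr4-1*, and none of them was listed at 0 in any library. A large part of that sum was *atf21*, which fell from 94.0 and 86.3 FPKM in WT to 42.6 and 44.7 in *pab2*Δ (-1.03, limma adjusted p = 4.02e-05). Leaving out *atf21* was a choice made after the values had been seen. The other 12 summed to 102 and 107 FPKM in WT, 145 and 151 in the *pab2*Δ libraries and 83.6 and 81.1 in *clr4-1*. Both *pab2*Δ libraries then lay above WT, which was not so for the sum of all 13. The summed level of the spore wall genes was 241 and 244 FPKM in WT, 263 and 267 in the *pab2*Δ libraries and 189 and 178 in *clr4-1*, again with none at 0. Of this sum, *wsc1* made up 71.9 and 75.9 FPKM in WT, 89.6 and 92.7 in the *pab2*Δ libraries and 78.4 and 72.6 in *clr4-1*. In that list *cda1* went from 75.7 and 70.8 FPKM in WT to 12.4 and 12.6 in *pab2*Δ. It was left out in a further sum, also after the values had been seen. The other 12 spore wall genes summed to 165 and 173 FPKM in WT, 250 and 255 in the *pab2*Δ libraries and 175 and 165 in *clr4-1*. None of these sums was TMM-scaled. That scaling divides the values by 1.12 in both *pab2*Δ libraries and by 0.97 in both WT libraries. In the sums of all 13 markers and of all 13 spore wall genes, the place of *pab2*Δ against WT depends on it. *atf31* (1.71), *rec8*, for the meiotic cohesin (1.64), and *ste6* (1.04) rose in *pab2*Δ, and *mei4*, for a meiotic transcription factor, was at 7.13 and 7.07 FPKM there against 3.42 and 2.69 in WT. *mei2*, for the RNA-binding protein that starts meiosis in *S. pombe*, was at 26.1 and 26.8 FPKM in WT, 17.7 and 17.1 in the *pab2*Δ libraries and 10.7 and 10.8 in *clr4-1*. *ste11*, for the transcription factor that opens the mating programme, was at 4.03 and 3.38 FPKM in WT, 3.77 and 4.27 in the *pab2*Δ libraries and 1.12 and 0.842 in *clr4-1*. In *clr4-1*, *atf21* (-1.74), *ste11* (-1.25) and *mei2* (-1.22) fell. In all, 9 of the 13 markers were called higher in *pab2*Δ, with *mei2* (-0.58, limma adjusted p = 8.15e-05) and *atf21* lower. As 53.8% of all genes tested were called higher there, this count says little by itself about a link to *spn7* and *spn5*. With TMM scaling, *atf31*, *rec8* and *ste6* were still called higher in *pab2*Δ, and *mei2* and *atf21* lower. The part of cells entering meiosis in the rise of the septins was not tested.

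**Figure D5:**
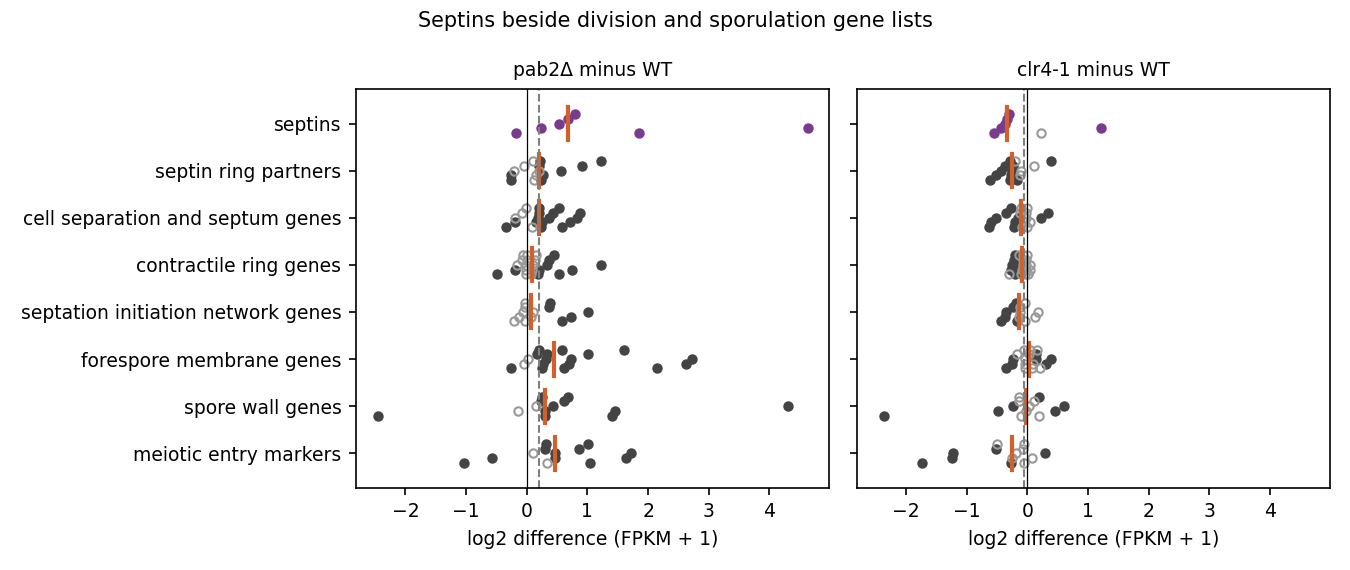
Log2 changes of log2(FPKM + 1) of the septins and of each gene list in both mutants against WT, with filled dots for genes called at an adjusted p under 0.05 and open dots for the others. The orange bar is the median of a list, 0.67 for the septins and 0.46 for the forespore membrane genes in *pab2*Δ, and the dashed grey line is the median of all genes tested, 0.19.

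The genes next to the septin genes in the RefSeq annotation of assembly SJ5 were examined as the surroundings of each member. Of the 26 tested among the 28 genes within 2 places of a septin gene, 13 were called higher and 2 lower in *pab2*Δ, with log2 changes from -0.91 to 0.84 and a median of 0.19, the same as for all genes tested, of which 53.8% were called higher and 19.9% lower. With TMM scaling, 7 of the 26 were called higher and 8 lower (all genes tested, 1612 and 1692). Those of *spn7* changed far less than *spn7*: *bxi1* was at 69.0 and 66.2 FPKM in WT and 103 and 107 in *pab2*Δ (0.62), *ppk24* was at 0.71, *sac3* at 0.26 and *cdc7* at -0.03. The genes beside *spn5*, *otu1* (-0.20, limma adjusted p = 0.0812) and SJAG_01770 (0.18, limma adjusted p = 0.0869), did not pass the test. With TMM scaling *sac3* was at 0.05 and not called, while *cdc7* (-0.23) and *otu1* (-0.38) were called lower. In *clr4-1*, 2 of the 26 were called higher and 10 lower (median -0.13), and 2 and 4 with TMM.

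The annotated spans of 4 septin genes overlap other genes, *spn2* with *moc3* and *tif308*, *spn3* with SJAG_04376, *spn6* with *dcr1*, in whose span it lies, and *spn7* with *ppk24*. The libraries were made strand-specific according to the study's methods, but whether the quantification used strand is not given in the sources used here. Reads of overlapping genes may therefore not be told apart, and the values of these septins are uncertain to that extent. SJAG_04376, which overlaps *spn3*, was at 145 and 148 FPKM in WT, 264 and 260 in the *pab2*Δ libraries and 81.0 and 79.5 in *clr4-1*. It rose in *pab2*Δ (0.84), where *spn3* was lower, and fell in *clr4-1* (-0.86), as *spn3* did. *dcr1* was at 4.90 and 4.66 FPKM in WT, 6.43 and 6.82 in the *pab2*Δ libraries and a mean of 5.12 in *clr4-1*, with a log2 change in *pab2*Δ of 0.40 beside 0.80 for *spn6*. *ppk24*, which overlaps *spn7*, was at 6.29 and 6.59 FPKM in WT, where *spn7* was lower (1.25 and 0.670). In the *pab2*Δ libraries *ppk24* was at 11.6 and 10.8 FPKM, where *spn7* was higher (47.2 and 46.7). In WT, *tif308* was at 265 and 255 FPKM and *moc3* at 27.9 and 24.2, beside 42.1 and 41.0 for *spn2*.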

How the data were processed

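Total RNA of 6 libraries, 2 each from WT, *pab2*Δ and *clr4-1*, was sequenced from strand-specific libraries. The authors deposited 1 table of expression values, read here as FPKM. That unit was inferred from the column names and values of the table, as the names of the 6 library columns do not state it. The submitters' processing notes name FastQC 0.11.6, STAR 2.5.3a and StringTie 1.3.1c without roles. The genome build, the annotation and the treatment of reads shared by genes are not given in the sources used here. Whole reads could not be recovered from FPKM, so depth is unknown. The 4 columns of the authors' mutant to WT ratios were not used. The *pab2*Δ columns carry no replicate number.

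The 4899 of 5272 genes whose mean reached 1 FPKM were fitted as log2(FPKM + 1) with limma 3.58.1 (R 4.3.3, mean trend, 3 strains in 1 model) with Benjamini-Hochberg adjustment and a threshold of 0.05. Fold changes on this scale understate low genes. The fold rule used ratios above 2 or below 0.5 in all 4 pairs, without pseudocount. An exact permutation test of 2 against 2 libraries cannot go below p = 0.333 and was not used. Genes named besides septins were *pab2*, *clr4*, *mid2*, *gef3*, up to 3 called members of each list with the largest change per mutant, the genes nearest in pattern (5 for *spn7*, 3 each for *spn5* and *spn6*) and neighbouring genes. The nearest genes of the mitotic septins, *mei4*, *wsc1* and the values of *mei2*, *ste11* and *atf21* in *pab2*Δ were added after values had been seen. So were the sums of markers, with and without *atf21* or *cda1*. The members and lists were chosen with earlier results of these data known. RefSeq (SJ5) matched 5213 genes by locus tag, including all 7 septins, and served for neighbours only. Sequences were not analysed here. Alternatives were other pseudocounts (0.1 and 5 FPKM), other filters, TMM scaling computed on FPKM, fewer libraries, a replicate block and other fold rules. The fit was tested on simulated data. Python 3.11.15, numpy 2.4.6, pandas 2.3.3 and matplotlib 3.10.9 were used for summaries and plots.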

Additional observations from a re-analysis of the deposited data

How the results depend on the processing

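Of 259 septin log2 changes refitted under the alternatives, 249 kept their direction and their side of the threshold, 10 kept the direction but lost the call, and none reversed. Many of these refits changed only the filter, the libraries of the strain not compared or the replicate block. In those the log2 change itself could not move, only its error and its call. The calls lost were *spn2* in *pab2*Δ and *spn3* in *pab2*Δ against *clr4-1* with TMM scaling, *spn3* in *pab2*Δ without WT replicate 1, and *spn5* in *clr4-1* under 7 alternatives. The log2 change of *spn7* in *pab2*Δ was 5.53 with a pseudocount of 0.1 FPKM, 3.13 with 5 FPKM and 4.41 to 4.84 with 1 library left out. In *clr4-1* it was 1.83, 0.52 and 1.01 to 1.44. Leaving out 1 library gave 0 to 1 septins called lower in *pab2*Δ (0 without WT replicate 1) and 4 to 5 in *clr4-1*.

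The shift between sporulation and mitotic septins was 2.48, 0.96 and 1.52 (*pab2*Δ against WT, *clr4-1* against WT and *pab2*Δ against *clr4-1*) with a pseudocount of 0.1 FPKM, 1.41, 0.52 and 0.88 with 5 FPKM, and 1.00, 0.33 and 0.67 without *spn7*. By the fold rule, 0 septins were higher in *clr4-1* at 3-fold or with 1 FPKM added to both values. Leaving out a library in the fold rule and the shift, leaving out *spn7*, TMM scaling for neighbouring genes and marker sums without *atf21* or *cda1* were chosen after seeing the data.

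TMM scaling moved the calls over all genes to 1612 higher and 1692 lower in *pab2*Δ (from 2634 and 977), to 1030 higher and 865 lower in *clr4-1* (from 740 and 1345), and to 1688 higher and 1690 lower in *pab2*Δ against *clr4-1* (from 2991 and 852). In *pab2*Δ, TMM scaling gave 3 ring partners higher and 4 lower, 7 cell separation genes higher and 6 lower, 4 contractile ring genes higher and 10 lower, 6 septation initiation network genes lower, 3 forespore membrane genes lower, and 6 spore wall genes higher and 2 lower. In *clr4-1* it gave 2 ring partners higher, 2 contractile ring genes lower and 1 septation initiation network gene higher. It reversed the small *pab2*Δ changes of *adg1* (-0.0047), *mnn9* (-0.20) and *tif308* (-0.060).

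No paired analysis was possible for *pab2*Δ because its columns carry no replicate number. With a replicate block in WT and *clr4-1*, 828 genes were called lower, the *spn5* call was lost (limma adjusted p = 0.0746) and the other 6 septins were unchanged in call. The paper describes 2 rounds of RNA sequencing, but whether the replicate numbers mark matched rounds is not stated. The differences between replicates 1 and 2 in WT and in *clr4-1* correlated across genes at r = -0.0945. That value shows no strong shared shift, and it cannot show whether the replicates were matched. Leaving out 1 library gave 750 to 1146 genes called lower in *clr4-1* (814 without WT replicate 1, 750 without WT replicate 2 and 861 without *clr4-1* replicate 2). With 2 libraries per strain and unknown depth, the low WT level of *spn7* limits the precision of its fold change.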
